A study of Mus musculus with 4 samples.

Results

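The muscarinic acetylcholine receptor genes Chrm1 to Chrm5, the Gq alpha subunit genes Gnaq and Gna11, and the potassium channel genes Kcnq3 and Kcnq5 were followed in RNA sequencing of mouse superior cervical and stellate ganglia, which are sympathetic ganglia at the neck and the top of the chest. The members were taken by symbol, and all 9 were found among the 21937 genes of the deposited table. The study deleted the transcription factor genes Hand2 or Gata3 in adult noradrenergic neurons to learn their role there, and holds 4 samples at postnatal day 60, with a single pool for each genotype. The Hand2 mutant was Hand2flx/del::DbhCreERT2 and its control Hand2flx/+::DbhCreERT2, and the Gata3 mutant was Gata3flx/flx::DbhCreERT2 and its control Gata3flx/+::DbhCreERT2. All 4 therefore carried the tamoxifen-dependent recombinase DbhCreERT2, whose promoter comes from the dopamine beta-hydroxylase gene, and at least 1 floxed allele, and the animals were injected with tamoxifen for 10 days. Because the promoter is that of a noradrenergic enzyme, recombination is directed at noradrenergic cells. The Gata3 mutant pool held 32 ganglia of 8 mice and each other pool 16 ganglia of 4 mice. In the Gata3 mutant only rudimentary ganglia were left, and the design text states that Gata3 was not reduced in them.

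The deposited table compares 2 columns of values, taken here as normalised, and names neither the line nor the samples behind them. Side A here is the column headed control, and the group mean set against it is called side B. Each gene therefore has 1 value per side and no replicate error, so "higher" and "lower" describe these 2 columns only, and the values were not used to infer a genotype.

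Acetylcholine released by preganglionic fibres excites sympathetic neurons quickly through nicotinic channels and more slowly through muscarinic receptors. Among the muscarinic receptors, M1, M3 and M5 couple to Gq proteins, whereas M2 and M4 couple to Gi/o proteins. In sympathetic neurons M1 acts through Gq and phospholipase C beta to deplete the membrane lipid PIP2, which Kcnq channels need to open. Closing of these channels suppresses the M-current, a slow potassium current that restrains repetitive firing, and the current is named after the muscarinic receptor.

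The sides differed outside these genes. Hand2 stood at 4749 on side A against 2001 on side B, and Gata3 had 1105 and 1050. The female-specific noncoding RNA Xist had 114 and 1595, and the Y-linked Ddx3y had 1206 on side A and a listed 0 on side B. The 7 skeletal muscle markers summed to 1466 and 55, with Mb at a listed 0 on side B. The 7 sensory neuron markers summed to 976 and 252, with Mrgprd listed at 0 on both sides. The 6 sympathetic neuron markers, among them the catecholamine enzyme genes Th and Dbh, summed to 307645 and 259835, so the labelled tissue showed its defining transcripts on both sides. Column sums were 19343986 for side A and 19135221 for side B, and whether they are read totals is not known.

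Of the 7 members with appreciable values, Chrm4 alone stood outside the central 95% of genes with like values, and its difference was below 2-fold. Of the 9 members, 7 had a mean of both sides of at least 50, and Chrm3 and Chrm5 were at most 2. Of these 7 members 6 had a lower value on side B and 1, Gna11, a slightly higher one, where 48.8% of the 12043 genes at that minimum were lower. None of the 9 members was past 2-fold at that minimum, where 0.0332% of the 12043 genes were higher and 0.448% lower, 0.482% together. In the authors' deposited table no member had an adjusted p under 0.05, where 0.365% of 16990 genes had one. In the authors' deposited table no member had an unadjusted p under 0.05 either, where 2.05% of genes had one. With 1 pool per genotype and the libraries per column unknown, what spread the authors' p-values measure is not known. Here and below they are therefore not read as showing that a gene is unchanged.

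To show sequence around the start of the member with the lowest ratio, the promoter of Chrm4 is printed beside that of Chrm2, the other Gi/o-coupled receptor gene. Hand2 belongs to the basic helix-loop-helix factors, which bind E-boxes of the form CANNTG, and capitals mark each E-box. Both windows are from RefSeq on GRCm38.p6 and run from 250 bases before to 50 bases after the gene's start. The Chrm4 window is chr2:91921939-91922238 on the plus strand and the Chrm2 window is chr6:36387834-36388133 on the plus strand.
Chrm4 promoter: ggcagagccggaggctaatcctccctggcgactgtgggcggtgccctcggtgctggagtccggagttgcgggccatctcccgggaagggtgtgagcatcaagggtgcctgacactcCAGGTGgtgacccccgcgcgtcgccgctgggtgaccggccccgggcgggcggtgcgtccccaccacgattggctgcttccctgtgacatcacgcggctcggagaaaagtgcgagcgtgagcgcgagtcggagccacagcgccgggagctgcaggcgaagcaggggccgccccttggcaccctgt
Chrm2 promoter: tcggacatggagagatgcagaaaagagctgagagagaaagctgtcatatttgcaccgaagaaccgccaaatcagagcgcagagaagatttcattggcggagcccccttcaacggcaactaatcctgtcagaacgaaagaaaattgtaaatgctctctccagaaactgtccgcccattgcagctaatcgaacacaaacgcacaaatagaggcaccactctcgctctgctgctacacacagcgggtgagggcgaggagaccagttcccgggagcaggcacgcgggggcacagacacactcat
The Chrm4 window held 1 E-box, CAGGTG, and the Chrm2 window held 0. The motif reads alike on both strands, and 72.3% of the 32851 promoter windows of the same length held at least 1. The CATCTG form, searched as CATCTG or CAGATG, is a subset of the E-boxes, was found in neither window and was held by 17.2% of all windows. The Chrm4 window was richer in G and C, at 70.7% against 52.7% for Chrm2. Windows were present for 7 of the 9 members, and outside Chrm4 only that of Chrm3 held an E-box.

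Among the receptors, Chrm1 had the highest level per length on both sides. Chrm1, the Gq-coupled receptor through which acetylcholine closes M-channels in these neurons, stood at 3060 on side A against 2875 on side B. The log2 ratio of B to A, computed with a pseudocount of 1 here and throughout, was -0.09, inside the range of -0.26 to 0.22 that held the central 95% of the 500 genes nearest in mean value. This range describes how far genes of like value differed between the columns and is not a replicate error. In the authors' deposited table the p-value of Chrm1 is 0.528 and the adjusted p is 1.

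Chrm2, the Gi/o-coupled receptor gene known above all from the heart, stood at 1215 on side A against 1140 on side B. Its log2 ratio of -0.09 equalled that of Chrm1 to this precision and lay inside its range of -0.35 to 0.24. The authors' deposited table gives Chrm2 a p-value of 0.604.

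Chrm4, the other Gi/o-coupled receptor, stood at 149 on side A against 96 on side B. Side B was 1.55-fold lower, with a log2 ratio of -0.63, just below the central 95% of like genes, which ran from -0.56 to 0.53. At 1.5-fold Chrm4 was the single member past the fold, where 1.47% of the 12043 genes were lower and 0.681% higher. The authors' deposited table gives Chrm4 a p-value of 0.146 and an adjusted p of 1. The columns also differed in Hand2, Xist and Ddx3y and in sensory neuron and skeletal muscle markers, with values given above. Of the sensory list 6 of 7 markers and of the muscle list 7 of 7 were detected, that is had a mean value of at least 20, and all of these were lower on side B. The part of any of these differences in that of Chrm4 was not tested. In RNA of whole ganglia, fewer cells of a type and less RNA per cell cannot be told apart.

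Chrm3, the Gq-coupled receptor of smooth muscle and glands, stood at 1 on side A against 2 on side B. Chrm5, a Gq-coupled receptor known from dopamine neurons of the midbrain, had a listed 0 on side A and 2 on side B. Both values were too low to compare, and no fold is read from them. The 5 smooth muscle markers summed to 491 and 505. The salivary gland list rested on 2 of its 6 markers, which went in opposite directions. Amy1, an amylase gene, had 336 and 131, and the epithelial cadherin gene Cdh1 had 253 and 461. The authors' deposited table lists adjusted p-values of 0.0123 for Amy1 and 0.239 for Cdh1. Aqp5 (1 and 8) and Bhlha15 (3 and 2) were near 0, and Smgc and Muc19 were listed at 0 on both sides.

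**Figure D1:**
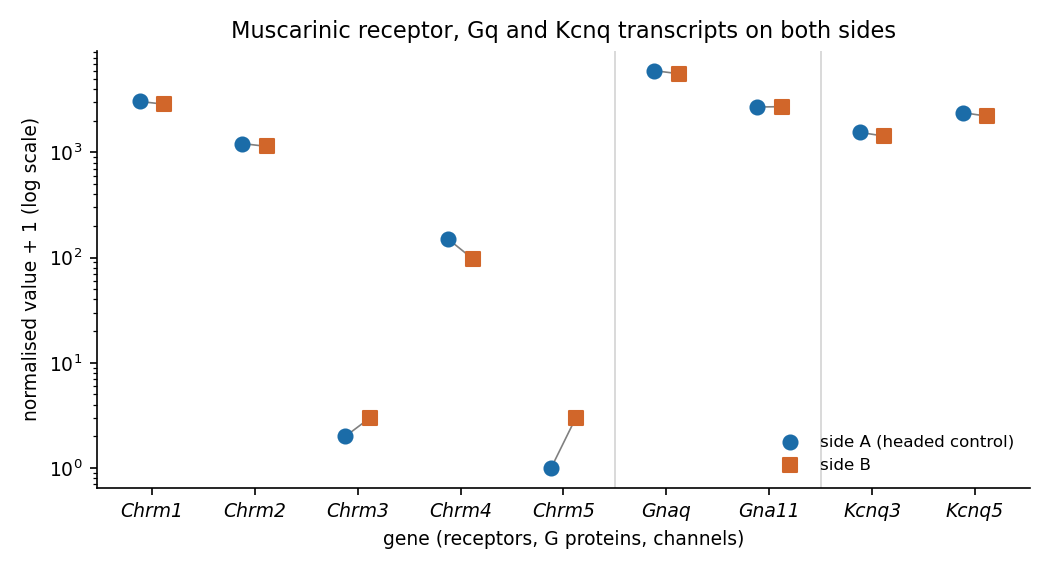
Normalised value plus 1 (log scale) of the 9 members on side A (circles) and side B (squares), 1 value per side. Chrm3 and Chrm5 lie at the foot of the plot, and Chrm4 (149 and 96) is the only one of the other 7 with a visible step between the sides.

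The values of the 5 receptors summed to 4425 on side A against 4115 on side B. Chrm1 made up 69.2% and 69.9% of these sums and Chrm2 27.5% and 27.7%. The share of Chrm4 was 3.37% on side A and 2.33% on side B. These shares are not corrected for length, so they compare the sides and not the receptors.

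The Gq proteins that link M1 to phospholipase C were the members with the highest levels per length. Gnaq, which encodes the alpha subunit Gq itself, stood at 6006 on side A against 5610 on side B. Its log2 ratio was -0.10, inside its range of -0.28 to 0.24. Gna11, which encodes the closely related alpha subunit G11, had 2704 and 2729. With a log2 ratio of 0.01 Gna11 was the only one of the 7 detected members that was not lower on side B. The authors' deposited table gives p-values of 0.448 for Gnaq and 0.929 for Gna11. The longest Gna11 transcript shared no 50-base window with those of any other gene, Gnaq included, in GENCODE M21.

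Both M-channel subunit genes were slightly lower on side B, inside the range of like genes. Kcnq3, whose product assembles with another Kcnq subunit into the classical M-channel, stood at 1554 on side A against 1429 on side B. Kcnq5, whose product can also form M-channels and joins with Kcnq3, had 2396 and 2210. Both had a log2 ratio of -0.12, with ranges of like genes of -0.31 to 0.23 for Kcnq3 and -0.29 to 0.26 for Kcnq5. In the authors' deposited table the p-values are 0.464 for Kcnq3 and 0.435 for Kcnq5.

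Across the 7 detected members the median log2 ratio was -0.10. Over the 12043 genes it was 0.0026. Apart from Chrm4, the 6 detected members lay between -0.12 and 0.01. The 6 sympathetic neuron markers had a median of -0.10, from -0.39 for the noradrenaline transporter gene Slc6a2 to 0.08 for Phox2a. The satellite glia markers, all 5 higher on side B, had a median of 0.13, and the 6 macrophage markers, all higher, one of 0.48. The part of neuron and other cell numbers in the members' ratios was not tested.

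**Figure D2:**
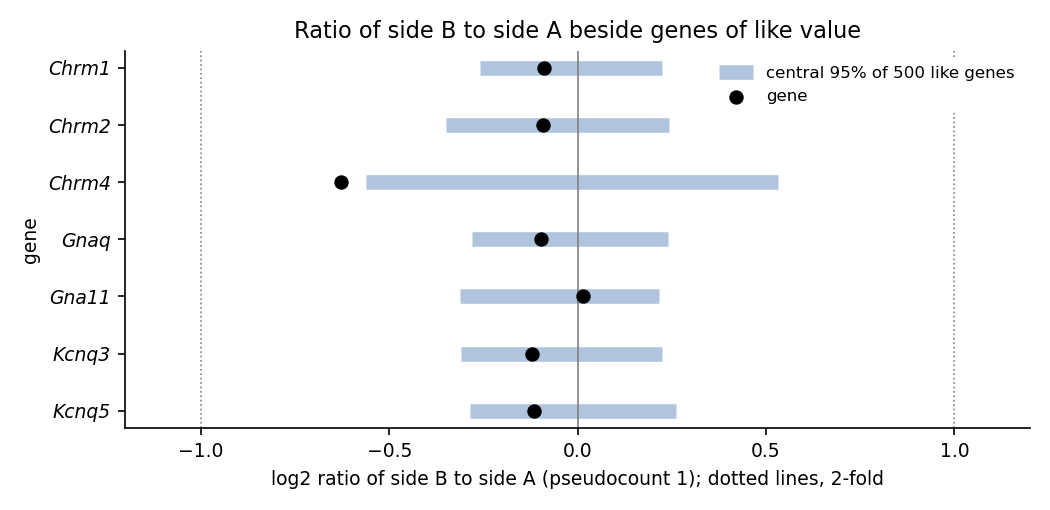
Log2 ratio of side B to side A for the 7 members with a mean value of at least 20 (points), with the central 95% of the 500 genes nearest in mean value (bars) and 2-fold marked by dotted lines. Chrm4 lies just outside its bar at -0.63, and the other 6 lie inside theirs.

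Levels of different genes compare only per length, and lengths were taken from GENCODE M21. Per kb of the longest transcript, side A had 1064 for Gnaq, 792 for Gna11, 488 for Chrm1 and 344 for Kcnq5. Chrm2 followed at 214, Kcnq3 at 131 and Chrm4 at 103 on the same scale. Side B had the same order, from 994 for Gnaq to 66.7 for Chrm4. With 1 value per side, no neighbours in this order can be told apart by a spread.

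Within each family the order held, but its size depended on the length used. Chrm1 exceeded Chrm2 2.28-fold per kb of transcript and 2.55-fold per kb of coding sequence on side A. Gnaq exceeded Gna11 1.34-fold per kb of transcript and 2.22-fold per kb of coding sequence. Kcnq5 exceeded Kcnq3 2.61-fold per kb of transcript but 1.41-fold per kb of coding sequence, since the longest Kcnq3 transcript has 11824 bases against 6975 for Kcnq5. The Chrm4 transcript in this annotation, with 1440 bases, holds little beyond its 1437 coding bases, so its level per kb of transcript cannot be compared well with the others. Per kb of coding sequence Chrm2 exceeded Chrm4 8.38-fold on side A and 12.2-fold on side B. Per kb of transcript the ratios were 2.07 and 3.01, and per kb of all exonic bases 1.94 and 2.83. Coding length raises genes with long noncoding parts, and the longest Chrm2 transcript has 5676 bases against 1398 coding bases. The size of this ratio is therefore not settled here. By coding length Chrm2 (869) also moved ahead of Kcnq5 (839) on side A.

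**Figure D3:**
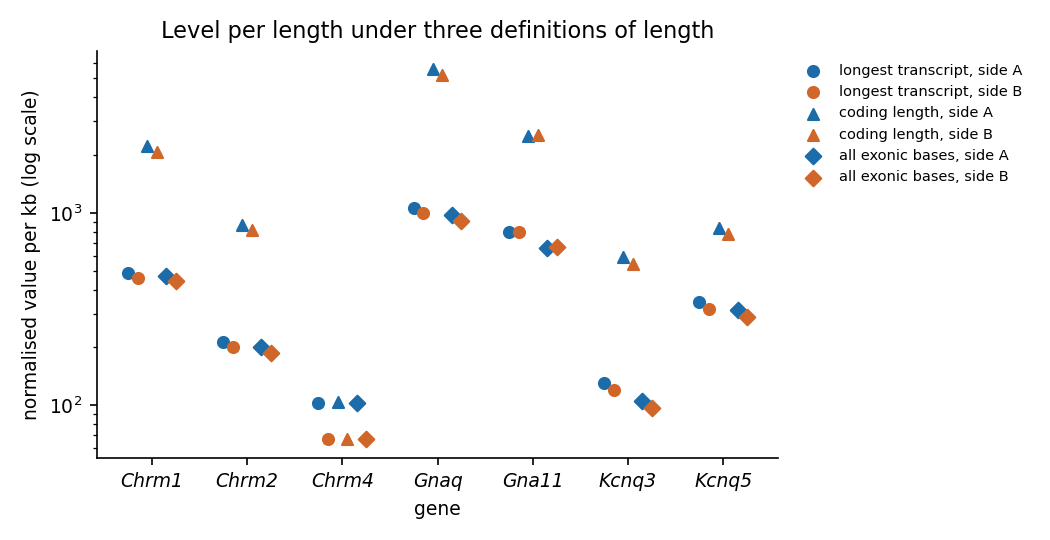
Normalised value per kb (log scale) for the 7 detected members on side A (blue) and side B (orange), by longest transcript (circles), coding length (triangles) and all exonic bases (diamonds). Gnaq is the highest and Chrm4 the lowest member under each of the 3 lengths, while coding length places Chrm2 ahead of Kcnq5. By all exonic bases Chrm4 (103) and Kcnq3 (106) nearly coincide on side A.

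Reads of other genes could have entered some of these values, as no source used here gives the strand setting. In GENCODE M21 an opposite-strand gene overlaps exons of Chrm1 (Gm22820), Chrm2 (9330158H04Rik) and Kcnq5 (Gm26580). The overlap covers 4.50%, 1.51% and 2.01% of the 50-base windows of their longest transcripts. For Gnaq 17 windows (0.304%) recur in 443 other genes, and for Kcnq3 13 windows (0.110%) recur in 35. No window of Gna11, Chrm3, Chrm4 or Chrm5 occurs in another gene's transcripts.

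The rest of the pathway, from receptor to channel, was followed in 11 lists of 79 genes. Of the 55 with a mean of at least 50, 34 (61.8%) were lower on side B, where 48.8% of all genes with that minimum were. None was past 2-fold, where 0.482% of all genes were, or past 1.5-fold, where 0.681% were higher and 1.47% lower. Their median log2 ratio was -0.02 beside 0.0026 over all genes. In the authors' deposited table none of the 79 had an adjusted p under 0.05, beside 0.365% of all genes, and 4 had an unadjusted p under 0.05, beside 2.05% of all genes, all 4 lower on side B. These 4, named after their values were seen, were Plcb3, Prkcd, Prkce and Rgs8. Among the 59 detected pathway genes, these 4 and Rgs5 (589 and 436, log2 ratio -0.43) lay below the central 95% of their like genes. By construction such a range leaves a small share of all genes below it. The lower edges of those ranges ran from -0.26 for Plcb3 to -0.42 for Prkcd, and no detected pathway gene lay above its range.

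Phospholipase C beta cleaves PIP2 after Gq activation. Of 4 genes 3 were detected, 1 higher and 2 lower on side B, with a median log2 ratio of -0.09. Plcb3 stood at 4096 on side A against 3314 on side B, a log2 ratio of -0.31 and a p-value of 0.0257 in the authors' deposited table. Plcb4 had 3709 and 3481, and Plcb1 had 162 and 175. The kinases that make PIP2 and its precursor had 7 of 7 genes detected, 2 higher and 5 lower, with a median of -0.09. Pi4ka, a phosphatidylinositol 4-kinase gene, had 5269 and 4651.

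IP3 receptors release calcium from stores, and protein kinase C is activated by the other product of PIP2 cleavage. Of 8 genes 7 were detected, 2 higher and 5 lower, with a median log2 ratio of -0.11. Prkca stood at 4177 on side A against 3879 on side B. Prkce, a calcium-independent kinase C gene, had 2683 and 2043, a log2 ratio of -0.39, and in the authors' deposited table a p-value of 0.00799 and an adjusted p of 0.870. Prkcd, of the same type, had 551 and 396, with a p-value of 0.0467 in the authors' deposited table.

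Regulators of the receptors and G proteins showed no common direction. RGS proteins speed the return of G proteins to their inactive state, and 6 of the 9 R4 family genes in the table were detected, 4 higher and 2 lower. Rgs4 stood at 16595 on side A against 16807 on side B, and Rgs8 had 1591 and 1267, a log2 ratio of -0.33 and a p-value of 0.0484 in the authors' deposited table. Of the 6 receptor kinase and arrestin genes, which act in receptor desensitisation, 1 was higher and 5 were lower, with a median of -0.09. Adrbk2 had 7371 and 6559.

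Other alpha subunits included those of the Gi/o class that M2 and M4 use. Of 7 genes 6 were detected, 4 higher and 2 lower on side B, and Gnao1, the Go alpha subunit gene, stood at 11646 on side A against 10566 on side B. Channel partners had 6 of 6 genes detected, 5 higher and 1 lower, with a median log2 ratio of 0.03. Akap5, the anchoring protein gene that holds protein kinase C at the M-channel, had only 23 and 33. Of the 8 other Kcnq and Kcne subunit genes 2 were detected, both lower on side B.

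Receptors other than M1 can also act on the M-current through Gq. Of 13 such genes 6 were detected and all 6 were lower, with a median log2 ratio of -0.07 and a range of -0.23 to -0.01. Agtr1a, an angiotensin II receptor gene, stood at 2157 on side A against 2105 on side B. Bdkrb2, the bradykinin B2 receptor gene, had 231 and 229. The genes of acetylcholine synthesis and breakdown had a median log2 ratio of -0.01. They ran from -0.21 for Bche to 0.27 for Chat, which had only 28 and 34. Ache, which encodes acetylcholinesterase, had 12562 and 12331, and of the 5 genes of acetylcholine synthesis and breakdown 2 were higher and 3 lower. The nicotinic subunit genes, which carry fast transmission, had 3 higher and 2 lower of 5 detected, with Chrna3 at 19125 and 18804.

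**Figure D4:**
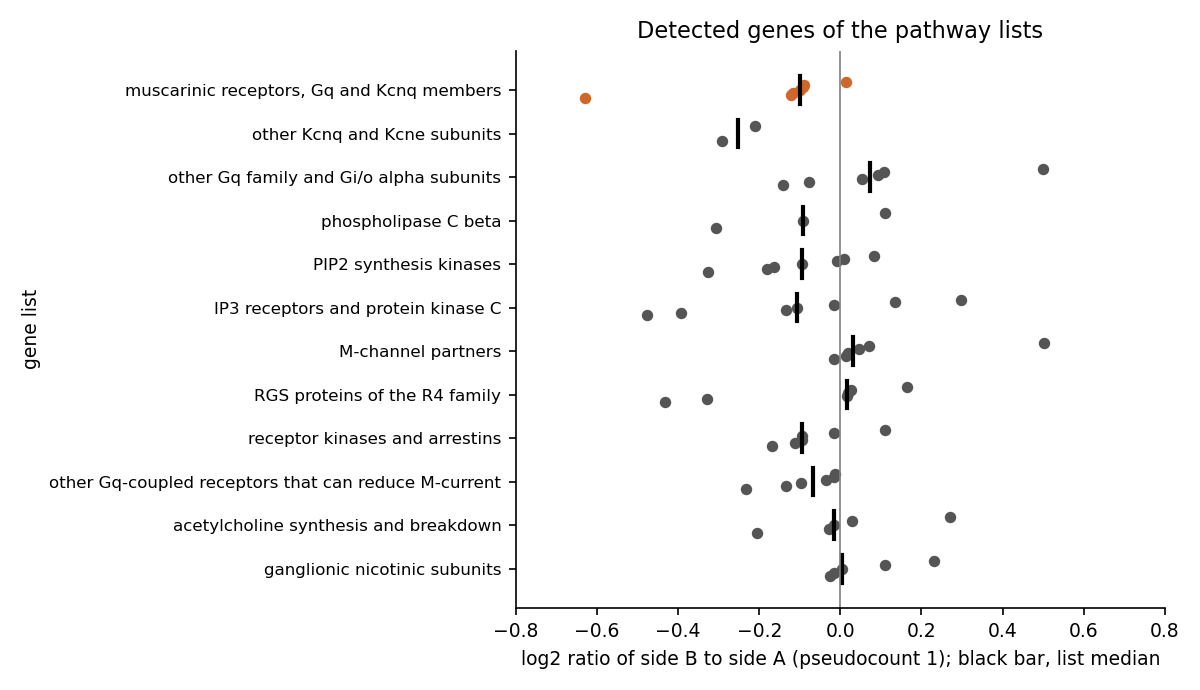
Log2 ratio of side B to side A for the 7 detected members (orange) and the detected genes of the 11 pathway lists (grey), with list medians as black bars. Chrm4 is the lowest point of the plot at -0.63, and every other gene shown lies within 1.5-fold. The ranges of like genes are not drawn here. Of the 59 detected pathway genes, Plcb3, Prkcd, Prkce, Rgs5 and Rgs8 also lie below their ranges.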

How the data were processed

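RNA was sequenced from pooled sympathetic ganglia of 4 genotypes, 1 pool each, per the labels. TopHat2 2.0.8, SAMtools 0.1.19, HTSeq 0.5.4p1, DESeq without a version and the build mm9 are listed, with no role, per the submitters' processing notes. No source used here gives the annotation, the strand setting or the libraries per column. Per the file headers the deposited table holds DESeq group means, treated as a normalised score of no stated unit, the authors' fold (a ratio), and their p-values and adjusted p-values, which were copied. In all 21937 rows the mutant heading stands over the mean of both sides, which was left unused. The columns name no sample, so depth is unknown and no counting error is given.

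The log2 ratio of side B to side A was computed in Python 3.11.15 (pandas 2.3.3, numpy 2.4.6) with a pseudocount of 1, which understates low genes. Genes were called at 2-fold at a mean of at least 50 and detected at 20. Each ratio was set beside the central 95% of the 500 genes nearest in rank of mean value. No p-value was computed. The functions were tested on simulated data. Members, lists and rules were chosen with earlier results of these data known. In each list the rule named the detected gene with the highest mean of both sides, not corrected for length, and up to 3 genes with a mean of at least 50 and a log2 ratio of at least 0.5 in size, of which there were none, and others are named as examples. Some genes that the rule names are not reported here. Of 80 listed pathway genes 79 matched a symbol. Lengths and overlaps came from GENCODE M21 (GRCm38), from which no coordinates are given.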

Additional observations from a re-analysis of the deposited data

How the results depend on the processing

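The members' log2 ratios were recomputed with pseudocounts of 0.5 and 5 and after dividing the columns by their sums, trimmed-mean factors or upper quartiles. Chrm4 stayed between -0.63 and -0.61, Gna11 between 0.01 and 0.03, Gnaq between -0.10 and -0.08, and no detected member changed direction. These scalings shifted all genes by at most 0.016 on the log2 scale. At 1.5-fold 1 member, Chrm4, was lower. Without a minimum mean value 1 member, Chrm5, was past 2-fold higher. Of the pathway genes 1, Bdkrb1, was then past it higher and 2, Rgs1 and Chrna4, lower. All of these had values of at most 9. The share of all genes past 2-fold at this setting was not computed, so nothing is read from these counts. With a minimum of 20 no call changed. Coding length changed the level ratios within families as described, and all exonic bases, an alternative chosen after seeing the data, moved none by over 1.5 times. No paired analysis was possible because each side is 1 column and each genotype 1 pool, and for the same reason no replicate could be left out.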
